A study of Arabidopsis thaliana with 18 samples.

Results

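The genes described here are 22 Arabidopsis thaliana genes, of 22746 probe sets measured, whose transcripts were higher in rosette leaves of both mock treated mutants of the series than in mock treated wild type. They were chosen by value. A probe set had to name 1 gene (13513 did) and be listed on all 9 mock arrays (7650 of those), and its mean log2 intensity had to be at least 0.8 above Col0 mock in 4tga mock and in sid2-2 mock (45 of those). The difference between Col0 safener and Col0 mock had to lie between -0.6 and 0.8 (26 of those), and 4 genes were left out by name. These 4, PDF1.2b, AT2G20870, AT2G43590 and AT4G24350, met the thresholds as well. A further 27 probe sets that met them had no entry in the annotation used, and 2 named several genes.

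The series holds 18 Affymetrix ATH1 arrays, 3 biological samples in each of 6 groups, from plants grown on soil to an age of 4 weeks. The groups were tga2tga3tga5tga6 (called 4tga) with safener, sid2-2 with safener and wild type Col0 with safener, and the same 3 genotypes with mock. Safeners are compounds that protect crops against herbicides. The spray held isoxadifen at 7.2 mM and mefenpyr at 5 mM in an emulsified formulation, and the mock spray held the solvent DMSO. The 4tga mutant carries mutations in TGA2, TGA3, TGA5 and TGA6, and sid2-2 a mutation in SID2. Both are whole-plant mutants, and the sources used here do not give the time from spray to harvest or the ecotype in which the mutations lie. The annotation used named 0 probe sets for the 5 mutated genes, so they could not serve to check the labels.

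TGA factors are basic leucine zipper proteins that bind TGACG elements in promoters and act with the coactivator NPR1 in salicylic acid signalling, and some of them also act in responses to oxylipins and to foreign compounds. SID2 encodes the plastid isochorismate synthase that makes most of the salicylic acid of stressed leaves. Salicylic acid and jasmonate signalling are known to restrain each other in leaves, and TGA factors take part in that crosstalk. Gene families of members known in the annotation only by their locus number are given below from general knowledge.

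Between 14627 and 16408 probe sets had a value on each array, and within a group any pair of arrays had an r of 0.979 to 0.994, computed over probe sets, which do not stand for independent samples. Replicate 1 of Col0 safener had the fewest listed values, and replicate 3 of sid2-2 mock had the most and the lowest correlation with its group (mean r 0.981). Values are intensities on a linear scale, and changes are log2 differences of group means. Since whole leaves were measured, a change of transcript per cell and a change in the share of a cell type cannot be told apart. The leaf genes RCA, rubisco activase, and PRK, phosphoribulokinase, had means of 4010 to 5150 and of 2150 to 3420 over the 6 groups. Of 8 markers of flower and seed 0 were named in the annotation, so their level is not known. The root hair gene EXP7 and the stomatal lineage genes MUTE and SPCH had no value on any array. In contrast, PYK10 of the root list and FMA of the guard cell and epidermis list had values in all 6 groups. Their group means were 275 to 507 and 76.2 to 90.1.

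The first question was how the members stood in mock treated leaves. These values chose the genes and are a description without a test. All 3 arrays of 4tga mock lay above all 3 of Col0 mock for 22 of 22 members (21.8% of all probe sets), and those of sid2-2 mock for 21 of 22 (26.9% of all probe sets). Neither share says anything of the members beyond the rule. The differences were 0.80 to 1.72 in 4tga (median 0.97) and 0.80 to 1.76 in sid2-2 (median 1.10) on the log2 scale. Of the 22 members 8 were raised at least 2-fold in both mutants, 10 in 4tga and 13 in sid2-2. The difference was larger in sid2-2 for 13 members and larger in 4tga for 9.

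**Figure D1:**
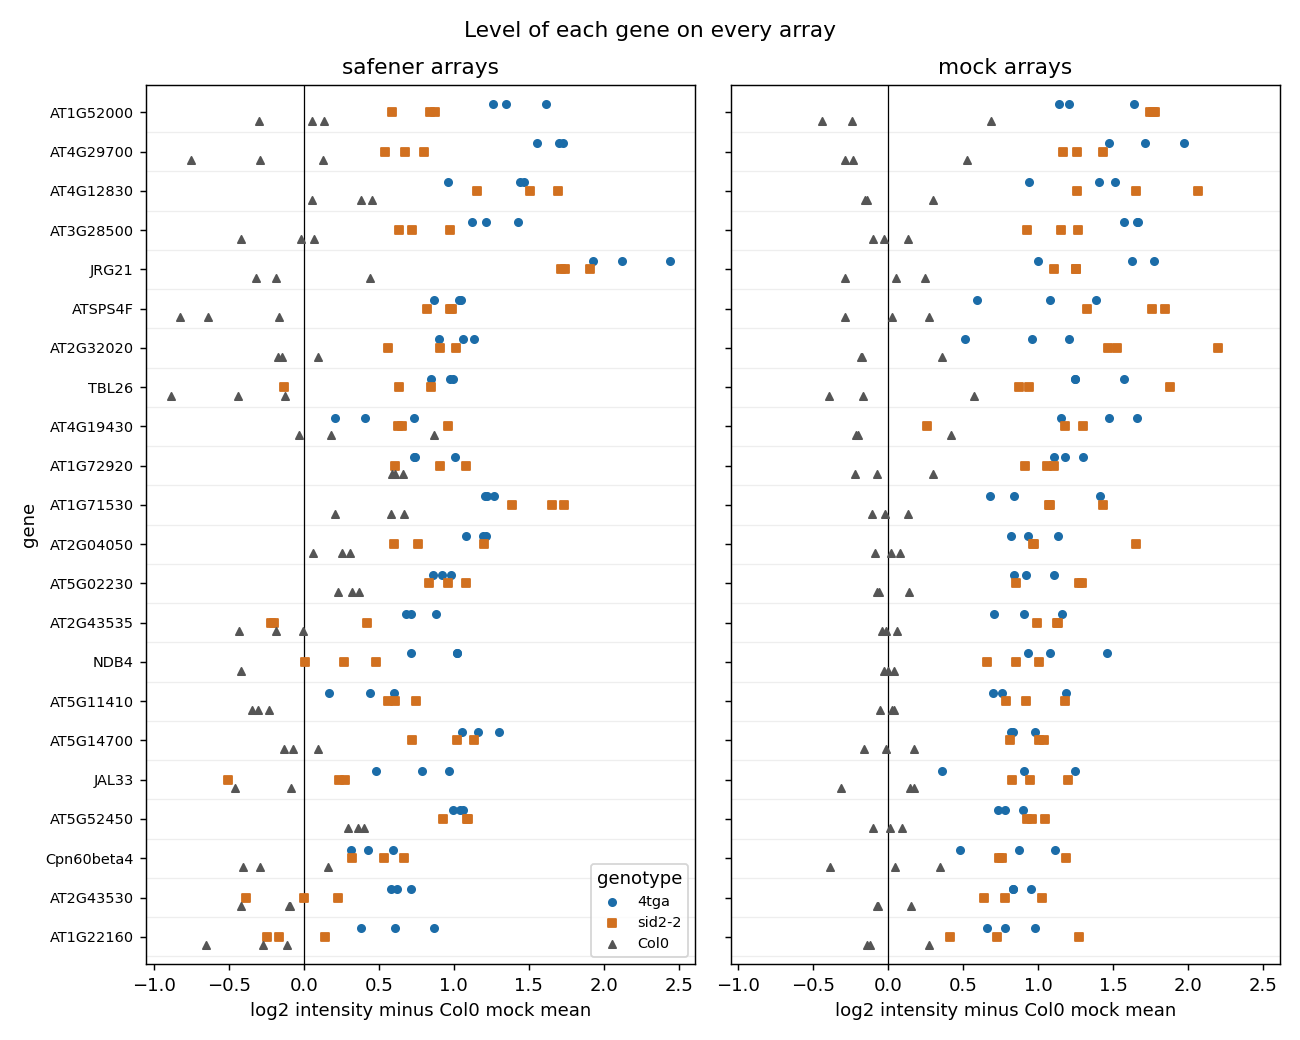
Log2 intensity of each of the 22 genes (rows) on every array, as the difference from the mean of Col0 mock, with safener arrays on the left and mock arrays on the right (circles 4tga, squares sid2-2, triangles Col0). Genes run from the largest to the smallest mean mock difference, and in the safener panel the squares of AT2G43535, JAL33, AT2G43530 and AT1G22160 overlap or border the triangles while the circles lie above both.

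Among members linked to jasmonate, JRG21 (AT3G55970) is a jasmonate-regulated 2-oxoglutarate dependent oxygenase that hydroxylates jasmonic acid. Its intensity was 451, 292 and 501 in 4tga mock leaves and 348, 315 and 349 in sid2-2 mock leaves, against 173, 151 and 119.8 in Col0 mock leaves, which is 2.76-fold and 2.30-fold above Col0. The 2 mutants overlapped. JAL33 (AT3G16450) and AT1G52000 encode jacalin-related lectins, carbohydrate-binding proteins. JAL33 had 136, 93.2 and 172 in 4tga mock leaves and 166, 129 and 139.9 in sid2-2 mock leaves, against 80.5, 81.7 and 58.5 in Col0 mock leaves. The lowest 4tga array of JAL33 lay close to the highest Col0 array. AT1G52000 had 254, 359.5 and 266 in 4tga mock leaves and 396, 392 and 388 in sid2-2 mock leaves, against 185, 85.1 and 97.7 in Col0 mock leaves. With a mean mock difference of 1.54 (log2) it was the member raised furthest on average, and its sid2-2 arrays all lay above its 4tga arrays.

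AT2G43530 and AT2G43535 are neighbours on their chromosome (1 place apart in the order of protein coding genes) and encode small cysteine-rich proteins of the scorpion toxin-like, defensin-related kind. AT2G43530 had 1344, 1344 and 1460 in 4tga mock leaves and 1174, 1293 and 1531 in sid2-2 mock leaves, against 837, 718 and 715 in Col0 mock leaves. AT2G43535 had 284, 247 and 338 in 4tga mock leaves and 332, 302 and 330 in sid2-2 mock leaves, against 158, 150.2 and 147 in Col0 mock leaves. Neither mutant overlapped Col0 for these 2 genes, while the mutants overlapped each other. AT1G72920, which encodes a protein with the TIR domain of immune receptors, had 126, 144 and 132 in 4tga mock leaves and 126, 122 and 109.8 in sid2-2 mock leaves, against 71.8, 55.5 and 50.2 in Col0 mock leaves. Of the 2 protein kinase family genes, AT1G71530 had 162, 97.8 and 109 in 4tga mock leaves and 129, 129 and 165 in sid2-2 mock leaves, against 67, 60.1 and 56.8 in Col0 mock leaves. AT5G11410 had 27, 25.9 and 36.2 in 4tga mock leaves and 27.5, 30.1 and 36.1 in sid2-2 mock leaves, against 16.2, 16.4 and 15.3 in Col0 mock leaves. With a mean log2 of 4.61 over the mock arrays, AT5G11410 had the lowest signal of the members. The mutant arrays of both kinase genes all lay above Col0, and the mutants overlapped.

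AT2G04050 and AT5G52450 are MATE family efflux carriers, a family that moves secondary metabolites and foreign compounds out of the cytosol. AT2G04050 had 1179, 949 and 1025 in 4tga mock leaves and 1051, 1054 and 1689 in sid2-2 mock leaves, against 504, 544 and 567 in Col0 mock leaves. AT5G52450 had 779, 696 and 719 in 4tga mock leaves and 793, 812 and 865 in sid2-2 mock leaves, against 447, 422 and 390.1 in Col0 mock leaves. For AT5G52450 all sid2-2 arrays lay above all 4tga arrays. ATSPS4F (AT4G10120), a sucrose-phosphate synthase, had 240.5, 337 and 418 in 4tga mock leaves and 574, 540.1 and 400.5 in sid2-2 mock leaves, against 192, 130.4 and 162 in Col0 mock leaves. Its differences were 1.02 in 4tga and 1.64 in sid2-2 (log2). NDB4 (AT2G20800), a type II NAD(P)H dehydrogenase of the mitochondrial inner membrane, had 167, 115 and 128 in 4tga mock leaves and 109, 95.5 and 121 in sid2-2 mock leaves, against 60.3, 62.1 and 59.3 in Col0 mock leaves. The acetyltransferase family gene AT2G32020 had 201, 124 and 169 in 4tga mock leaves and 251, 241 and 399 in sid2-2 mock leaves, against 112, 77.2 and 76.8 in Col0 mock leaves. AT2G32020 had the largest gap between the mutants, with a difference of 0.89 in 4tga and 1.73 in sid2-2 (log2) and no overlap between their arrays.

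AT4G29700, an alkaline phosphatase-like hydrolase, had 235, 198 and 281 in 4tga mock leaves and 171, 193 and 161 in sid2-2 mock leaves, against 103, 60.6 and 58.7 in Col0 mock leaves. This was the largest rise in 4tga (3.29-fold), and its 4tga arrays all lay above the sid2-2 arrays. AT4G12830, an alpha/beta hydrolase, had 88.1, 122 and 131 in 4tga mock leaves and 145, 193 and 109.9 in sid2-2 mock leaves, against 41.7, 41.4 and 56.5 in Col0 mock leaves. AT5G02230, a haloacid dehalogenase-like hydrolase, had 115, 122 and 139 in 4tga mock leaves and 116, 158 and 156 in sid2-2 mock leaves, against 61.8, 61 and 71 in Col0 mock leaves. AT5G14700 belongs to the NAD(P)-binding Rossmann fold proteins related to cinnamoyl-CoA reductase. Its values were 157, 158 and 175 in 4tga mock leaves and 155, 182 and 178 in sid2-2 mock leaves, against 100.1, 87.9 and 79.4 in Col0 mock leaves. TBL26 (AT4G01080), of the TRICHOME BIREFRINGENCE-LIKE family, whose characterised members add acetyl groups to cell wall polysaccharides, had 151, 189.6 and 151 in 4tga mock leaves and 122, 234 and 117 in sid2-2 mock leaves, against 94.7, 48.4 and 56.6 in Col0 mock leaves. In sid2-2 replicate 2 of TBL26 stood well above the other 2 arrays.

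The last members were Cpn60beta4 (AT1G26230), a subunit of the plastid chaperonin, AT3G28500, a ribosomal stalk protein of the acidic P2 kind, AT1G22160, which encodes an FCS-like zinc finger (DUF581) protein, and AT4G19430. Cpn60beta4 had 176, 273 and 231 in 4tga mock leaves and 211, 288 and 214 in sid2-2 mock leaves, against 161, 96.7 and 130.2 in Col0 mock leaves. AT3G28500 had 353, 332 and 354 in 4tga mock leaves and 212, 268 and 248 in sid2-2 mock leaves, against 122, 104 and 109.5 in Col0 mock leaves. For AT3G28500 all 4tga arrays lay above all sid2-2 arrays. AT1G22160 had 289, 266 and 332 in 4tga mock leaves and 224, 279 and 407 in sid2-2 mock leaves, against 204, 154 and 152 in Col0 mock leaves. AT4G19430 had 111, 89.2 and 126 in 4tga mock leaves and 47.9, 98.8 and 90.9 in sid2-2 mock leaves, against 34.6, 34.9 and 53.6 in Col0 mock leaves. It was the member whose sid2-2 arrays overlapped Col0, through replicate 1.

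The threshold ran through a continuous range of values. The lower of the 2 mock differences was 0.802 for AT1G22160 and for AT5G52450 and 0.812 for AT2G43530, just inside, and 0.784 for AT5G44050, 0.773 for AT1G27480 and 0.771 for AT1G51380, just outside. When 1 of the 12 arrays used by the rule was left out at a time, 9 members met the rule every time and 13 failed it at least once. Without sid2-2 mock replicate 3, the array that stood apart, the rule gave 20 genes, 18 of them members. The 4 members lost without that array were AT1G22160, AT2G43530, AT4G19430 and NDB4. Other arrays weighed as much or more. The genes found held 17 members without Col0 mock replicate 2 or 3, and 18 without 4tga mock replicate 1 or 3. Without Col0 mock replicate 1 the rule gave 32 genes, with all 22 members among them.

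The second question was whether the members were also higher in the mutants when all plants had received safener. The mutant safener arrays took no part in the choice, but the Col0 safener arrays did. A gene that rose there by more than 0.8 or fell by more than 0.6 could not be a member. The counts against Col0 safener are therefore not independent of the choice. In 4tga safener 19 of 21 members tested were higher than in Col0 safener and 0 lower, where the shares over the whole table were 8.81% higher and 4.23% lower (limma, Benjamini-Hochberg adjusted p under 0.05). At an unadjusted p under 0.05 the counts were the same, 19 and 0. The median log2 difference was 0.97 over the members and 0.05 over all probe sets tested. In sid2-2 safener 15 of 21 were higher than in Col0 safener and 0 lower (15 and 0 unadjusted), against 8.94% and 4.17% of all probe sets, with medians of 0.81 and 0.09. Of the 20 members with a value on all 9 safener arrays, all 3 arrays of 4tga lay above all 3 of Col0 for 19 (20.8% of all probe sets), and those of sid2-2 for 14 (21.1% of all probe sets). Of the 21, 15 were called in both mutants, 4 in 4tga and not in sid2-2, and 2 in neither. The 4 were AT2G43530 (log2 0.84 in 4tga), AT2G43535 (0.97), JAL33 (1.02) and AT1G22160 (0.96), whose values are given with the comparison of the mutants. This split depended on the fit. With array weights AT1G22160 (log2 0.51, limma adjusted p = 0.0214), AT2G43530 (0.35, adjusted p = 0.0263) and AT2G43535 (0.38, adjusted p = 0.043) were called in sid2-2 as well, and so was AT4G19430 of the 2 in neither (0.70, adjusted p = 0.0439). Calls rose over the whole table too, with 2822 probe sets higher in sid2-2 with array weights, beside 1332 in the main fit. With each array centred on the median of the probe sets listed on every array, the whole table had 1119 higher and 970 lower in 4tga, beside 1309 and 628 as deposited, and 929 higher and 964 lower in sid2-2, beside 1332 and 622, while the members' counts were still 19 and 15. NDB4 was not tested against Col0, since it was listed on 1 Col0 safener array, whose value of 45.4 was also the only one behind its place in the window of the rule.

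JRG21 led both comparisons. Under safener its intensity was 798, 559 and 639 in 4tga and 481, 551 and 491 in sid2-2, against 129, 118 and 199 in Col0. It was 4.55-fold higher in 4tga (log2 2.19, SE 0.20, limma adjusted p = 3.48e-07) and 3.51-fold higher in sid2-2 (log2 1.81, SE 0.20, limma adjusted p = 7.49e-06), with all 3 arrays of each mutant above Col0. ATSPS4F had 331, 291 and 327 in 4tga and 314, 317 and 283 in sid2-2, against 90, 142 and 102 in Col0, and was higher in both mutants (log2 1.53 and 1.47, limma adjusted p = 1.98e-05 and 4.98e-05). The mutants did not separate for ATSPS4F. AT4G29700 had 232, 210.1 and 237 in 4tga and 114, 104 and 125 in sid2-2, against 42.4, 78.3 and 58.5 in Col0. It was 3.90-fold higher in 4tga and 1.97-fold higher in sid2-2 than in Col0 (limma adjusted p = 1.81e-06 and 0.00356).

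The remaining leading members in 4tga safener were AT1G52000, TBL26 and AT3G28500. AT1G52000 had 355, 276 and 295 in 4tga and 212, 207 and 174 in sid2-2, against 93.7, 127 and 120.1 in Col0 (log2 1.45 in 4tga and 0.81 in sid2-2). TBL26 had 127, 125 and 115 in 4tga and 99, 115 and 58.1 in sid2-2, against 34.6, 58.5 and 47 in Col0, so that the lowest sid2-2 array fell within the range of Col0. AT3G28500 had 260, 301 and 243 in 4tga and 220.1, 174 and 185 in sid2-2, against 110.2, 117 and 83.6 in Col0, with no overlap of either mutant with Col0 (log2 1.38 and 0.90, limma adjusted p = 6.04e-07 and 0.000152). In sid2-2 safener AT4G12830, AT1G71530 and AT5G14700 were among the most raised. AT4G12830 had 125, 127 and 89.6 in 4tga and 131, 149 and 102 in sid2-2, against 47.9, 59.9 and 63.1 in Col0 (log2 0.99 and 1.16). The kinase gene AT1G71530 had 143, 141 and 147 in 4tga and 160.1, 203 and 193 in sid2-2, against 70.5, 97.2 and 91.5 in Col0 (log2 0.75 and 1.11). Its sid2-2 arrays all lay above its 4tga arrays. AT5G14700 had 219, 199 and 184 in 4tga and 195, 180.1 and 146 in sid2-2, against 94.7, 81.1 and 84.3 in Col0 (log2 1.21 and 1.00).

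The MATE carriers were higher in both mutants. AT5G52450 had 834, 876 and 865 in 4tga and 889.6, 897 and 797 in sid2-2, against 539.6, 514 and 554 in Col0 (log2 0.68 and 0.68, limma adjusted p = 2.42e-05 and 3.76e-05). AT2G04050 had 1140, 1229 and 1250 in 4tga and 817, 1237 and 911 in sid2-2, against 562, 665 and 641 in Col0. It was called in both (log2 0.96 and 0.65). AT2G32020 (192, 182 and 163 in 4tga and 163, 176 and 129 in sid2-2, against 92.9, 78.8 and 77.3 in Col0), AT5G02230 (127, 122 and 117 in 4tga and 126, 136 and 115 in sid2-2, against 83.3, 75.3 and 80.4 in Col0), AT5G11410 (21.7, 18 and 24.3 in 4tga and 26.8, 24.3 and 23.6 in sid2-2, against 13.6, 12.6 and 12.9 in Col0) and Cpn60beta4 (157, 191 and 171 in 4tga and 183, 201 and 158 in sid2-2, against 104, 142 and 95.4 in Col0) were also higher in both, with log2 differences of 0.62 to 1.11 in 4tga and 0.65 to 0.93 in sid2-2. The 2 members called in neither mutant were AT1G72920 and AT4G19430. AT1G72920 had 98, 97.4 and 118 in 4tga and 124, 89.3 and 109.7 in sid2-2, against 87.8, 92.5 and 89.2 in Col0 (log2 0.21 and 0.25, limma adjusted p = 0.32 and 0.233). AT4G19430 had 66.9, 53.3 and 46.4 in 4tga and 63.2, 78.2 and 62 in sid2-2, against 45.6, 73.3 and 39.3 in Col0 (log2 0.11 and 0.41), with overlap on both sides.

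Without Col0 safener replicate 1 the count was 18 for 4tga and 11 for sid2-2, and AT1G52000, AT2G04050, Cpn60beta4 and TBL26 were not called in sid2-2. Over all probe sets the higher calls in that setting numbered 679 in 4tga and 739 in sid2-2, beside 1309 and 1332 in the main fit. In sid2-2 the calls of TBL26 (adjusted p of up to 0.153) and Cpn60beta4 (up to 0.0955) were also lost without sid2-2 safener replicate 1 or 2 or Col0 safener replicate 3, that of AT1G52000 (up to 0.0832) without sid2-2 safener replicate 1 or 2, and that of AT2G04050 (up to 0.0842) without sid2-2 safener replicate 2. With blanks at the lowest value of each array, the sid2-2 calls of AT1G52000 (adjusted p = 0.0516), Cpn60beta4 (0.0646) and TBL26 (0.0913) were lost, and that of TBL26 also with only the 2 groups in the fit (0.0565). In 4tga the call of Cpn60beta4 (up to 0.135) was lost without any 1 of the 4tga safener arrays or without Col0 safener replicate 1 or 3. With blanks filled in the same way, the 4tga calls of Cpn60beta4 (adjusted p = 0.0937) and JAL33 (0.064) were lost. When only probe sets with a mean log2 of at least 6 were kept, the low AT5G11410 dropped out and the counts were 18 for 4tga and 14 for sid2-2. Over all probe sets kept, 1228 and 1281 were then called higher.

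**Figure D2:**
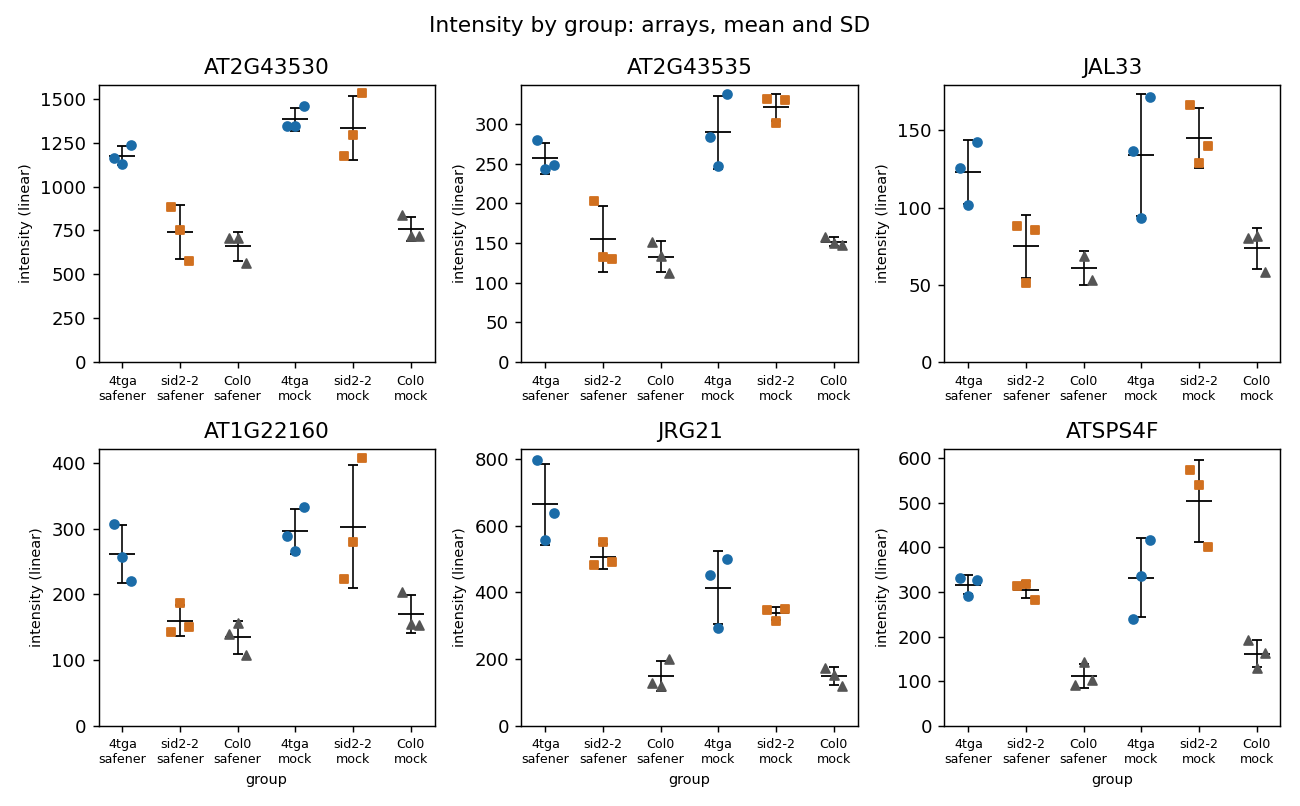
Intensity (linear scale, each panel with its own axis from 0) of 6 of the genes in the 6 groups, with 1 point per array and the mean and SD as bars. AT2G43530, AT2G43535, JAL33 and AT1G22160 overlap Col0 safener in sid2-2 safener and lie above it in 4tga safener, whereas JRG21 and ATSPS4F sit above Col0 safener in both mutants.

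The third question was whether the mutants differed from each other under safener, a comparison in which no array had been used to choose the members. Of 22 members 8 were higher in 4tga safener than in sid2-2 safener and 0 were lower, against 7.58% higher and 7.90% lower among all probe sets (limma, Benjamini-Hochberg). At an unadjusted p under 0.05 the counts were 8 higher and 1 lower. The median log2 difference was 0.26 over the members and -0.02 over all probe sets. The 8 genes were AT4G29700, AT2G43535, JAL33, AT1G22160, AT2G43530, NDB4, AT1G52000 and AT3G28500, and all 3 arrays of 4tga lay above all 3 of sid2-2 for each of them. That held for 10 members in all (15.7% of all probe sets), and the reverse for 1, AT1G71530 (21.0% of all probe sets).

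The neighbouring genes of cysteine-rich proteins were both among the 8. AT2G43530 had 1160, 1130 and 1237 in 4tga and 884, 755 and 577 in sid2-2, against 704, 708 and 564 in Col0. It was 1.62-fold higher in 4tga than in sid2-2 (log2 0.69, SE 0.14, limma adjusted p = 0.00172), and between sid2-2 and Col0 the arrays overlapped (log2 0.15, limma adjusted p = 0.506, against log2 0.35 and adjusted p = 0.0263 with array weights). AT2G43535 had 279, 243 and 249 in 4tga and 203, 132 and 130.2 in sid2-2, against 151, 134 and 112 in Col0, a 1.69-fold difference between the mutants (log2 0.76, SE 0.15, limma adjusted p = 0.00172). With sid2-2 replicate 1 above the other arrays of its group, sid2-2 and Col0 overlapped here too (log2 0.21, and 0.38 with adjusted p = 0.043 with array weights).

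Both lectin genes were also higher in 4tga than in sid2-2. JAL33 had 126, 102 and 143 in 4tga and 88, 51.3 and 85.5 in sid2-2, against 68.6 and 53 in Col0, where 1 Col0 array had no value. Its level was 1.68-fold higher in 4tga than in sid2-2 (log2 0.75, SE 0.23, limma adjusted p = 0.0307), and sid2-2 was not called against Col0 (log2 0.27). AT1G52000 was 1.56-fold higher (log2 0.64, SE 0.21, limma adjusted p = 0.046), close to the limit for a call. Its sid2-2 arrays all lay above Col0 (log2 0.81, limma adjusted p = 0.0161). In mock leaves its order between the mutants was the reverse (log2 -0.44). AT1G22160 had 307, 258 and 219.6 in 4tga and 142, 186 and 150.4 in sid2-2, against 139.7, 156 and 107 in Col0. Its difference between the mutants was 0.71 (SE 0.19, limma adjusted p = 0.0167), with sid2-2 and Col0 overlapping (log2 0.26, and 0.51 with adjusted p = 0.0214 with array weights). The dehydrogenase gene NDB4 had 123, 99.3 and 123 in 4tga and 61, 84.6 and 73 in sid2-2 (log2 0.67, SE 0.15, limma adjusted p = 0.00453). AT4G29700 had the largest difference of the set, 1.98-fold (log2 0.99, SE 0.20, limma adjusted p = 0.00225), and AT3G28500 the smallest of the called ones (log2 0.48, limma adjusted p = 0.0179).

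**Figure D3:**
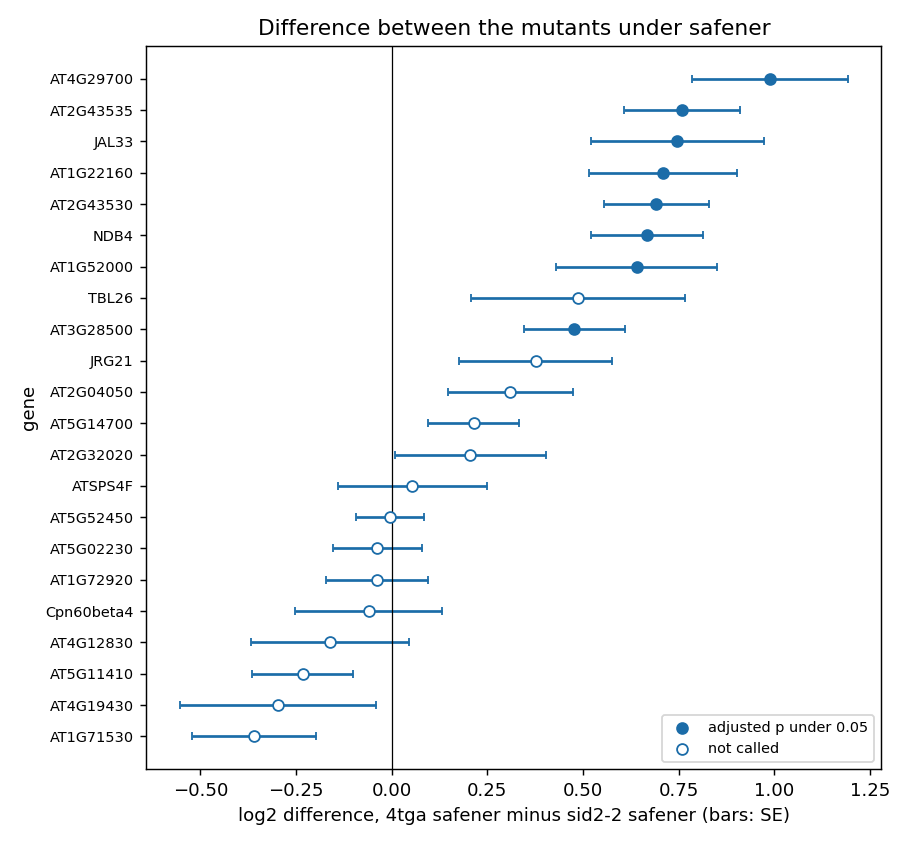
Log2 difference between 4tga safener and sid2-2 safener for each of the 22 genes, with SE as bars and filled points for genes called at an adjusted p under 0.05. The 8 filled points lie between 0.48 and 0.99, and the 14 open points between -0.36 and 0.49.

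The other 14 members were not called between the mutants. Their log2 differences ran from -0.36 (AT1G71530, limma adjusted p = 0.156) to 0.49 (TBL26, adjusted p = 0.273), with SE of 0.09 to 0.28, and that they missed the threshold does not show equal levels. The count of 8 was 5 without 4tga safener replicate 1, without sid2-2 safener replicate 2 or without sid2-2 safener replicate 3, and 4 when blanks were set to the lowest value of each array. Over all probe sets the higher calls in these settings numbered 772, 1004, 905 and 941 in that order, beside 1143 in the main fit. AT4G29700, AT2G43530 and AT2G43535 were called in all 15 alternatives, NDB4 in all but that with filled blanks. With filled blanks the calls of NDB4 (adjusted p = 0.525), JAL33 (0.558), AT1G52000 (0.11) and AT1G22160 (0.0507) were lost. The log2 differences of NDB4 and JAL33 stayed at 0.67 and 0.75, since both had values on all 6 arrays compared. Their blanks lay in Col0 safener, a group that shares the spread of the fit. AT1G22160 (adjusted p of up to 0.0926) lost the call without 4tga safener replicate 1 or sid2-2 safener replicate 1 or 3, AT3G28500 (up to 0.0983) without 4tga safener replicate 2 or sid2-2 safener replicate 2 or 3, and JAL33 (0.0879, 0.12 and 0.165) without 4tga safener replicate 1 or 3 or sid2-2 safener replicate 2. AT1G52000 (up to 0.175) lost it without any 1 of the 6 arrays and with quantile normalization (adjusted p = 0.0678).

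How the levels moved with safener within each genotype is a description, since the mock arrays of all 3 genotypes chose the members as high or low. The median over the members was 0.95 to 1.01 above the Col0 mock mean on the 4tga safener arrays and 0.92 to 1.17 on the 4tga mock arrays (log2). In sid2-2 it was 0.67 to 0.85 on the safener arrays and 0.95 to 1.17 on the mock arrays, and in Col0 it was -0.17 to -0.01 on the safener arrays and -0.09 to 0.15 on the mock arrays. The ranges of safener and mock arrays thus overlapped in 4tga and in Col0 and not in sid2-2. All 3 safener arrays lay below all 3 mock arrays for 6 of 22 members in 4tga (28.7% of all probe sets) and for 12 of 22 in sid2-2 (27.6% of all probe sets). They lay above for 3 and for 1 (17.4% and 15.6% of all probe sets).

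**Figure D4:**
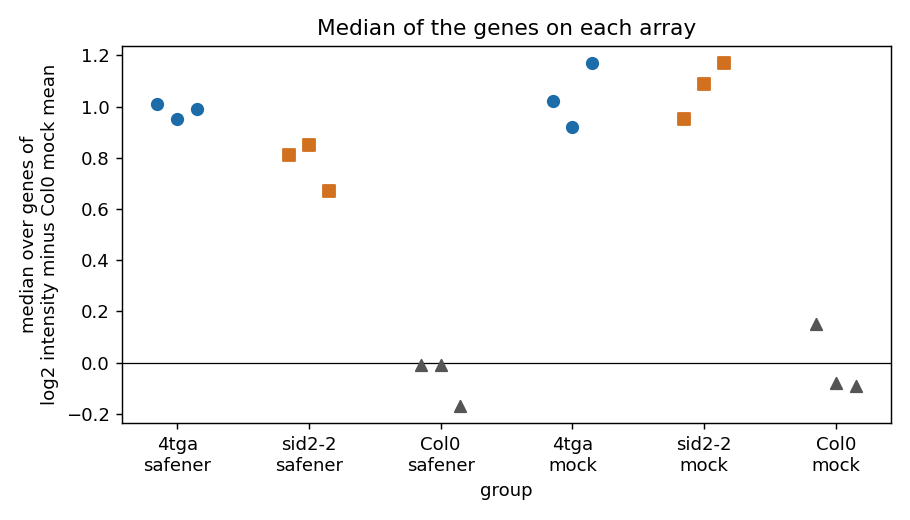
Median over the 22 genes of the log2 intensity minus the Col0 mock mean (vertical axis) on each of the 18 arrays, by group, 1 point per array. The sid2-2 safener arrays (0.67 to 0.85) lie below the sid2-2 mock arrays (0.95 to 1.17), the 4tga safener arrays (0.95 to 1.01) lie within the range of the 4tga mock arrays, and all Col0 arrays lie near 0.

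JRG21 had the largest rise with safener in both mutants, with a mean of 665 ± 122 in 4tga safener against 415 ± 109 in 4tga mock, and 508 ± 38 in sid2-2 safener against 338 ± 19.4 in sid2-2 mock (SD, n = 3 each). In Col0 it was 149 ± 44 with safener against 148 ± 26.9 with mock. AT1G71530 had log2 differences of 0.26 in 4tga, 0.40 in sid2-2 and 0.49 in Col0. Beside these, AT5G14700 was among the 3 largest rises in 4tga (0.30) and AT5G52450 among those in sid2-2 (0.06). In sid2-2 the largest falls were those of AT2G43535, with 155 ± 41.3 in safener leaves against 321 ± 16.9 in mock leaves (log2 -1.08), and of the lectin genes AT1G52000 (log2 -0.99) and JAL33 (log2 -0.99). The same 3 genes gave -0.16, 0.08 and -0.09 in 4tga. There the largest falls were those of AT4G19430 (log2 -0.98), AT5G11410 (-0.47) and TBL26 (-0.41). In Col0 the differences ran from -0.54 (ATSPS4F) to 0.62 (AT1G72920), within the window of the rule.

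Genes of related pathways were counted from lists, of which few members were named on the arrays. Of 20 jasmonate signalling and response genes 4 were named. Under safener all 3 that could be tested, JMT, a jasmonate methyltransferase, and the defensins PDF1.2 and PDF1.2b, were higher in 4tga and in sid2-2 than in Col0 (limma, list median log2 1.54 and 1.68, against 0.05 and 0.09 over all probe sets). PDF1.2b is measured by a probe set marked for possible cross-hybridization, so the defensins may not be separate measurements. It also met the thresholds of the rule, and the list was made with earlier results of these data known. The count of 3 is therefore not independent of the choice. In mock leaves the log2 differences from Col0 in 4tga and sid2-2 were 3.39 and 4.37 for PDF1.2, 2.13 and 3.06 for PDF1.2b, and 0.56 and 1.14 for JMT. For the thionin THI2.1, listed on 2 Col0 mock arrays, they were 2.53 and 2.34, with means of 279 ± 70.1 in 4tga mock and 244 ± 56.2 in sid2-2 mock. Between the mutants under safener THI2.1 was higher in 4tga, with 288 ± 68 against 67.7 ± 11.5 in sid2-2 (SD, n = 3 each, log2 2.08, limma adjusted p = 2.46e-05), and the other 3 were not called. Of 12 jasmonate synthesis genes 1 was named, OPCL1, which activates a precursor of jasmonic acid, and it was not called in any of the 3 safener comparisons (log2 0.17, -0.06 and 0.23). Of 15 salicylic acid defence genes 2 were named. The glutaredoxin GRX480, which is induced by salicylic acid, was lower in 4tga safener (62.4 ± 9.1) and in sid2-2 safener (207 ± 14.2) than in Col0 safener (378 ± 23.2), opposite to the members. SAG101 was lower in sid2-2 safener than in Col0 safener (log2 -0.42) and not called in 4tga (log2 0.23), with a difference of 0.65 between the mutants (limma adjusted p = 0.00248).

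Several genes outside these pathways had the same order of the mutants as the 8 members called between them. Of all probe sets 7.58% were called in that direction, and a link of these genes to the members was not tested. The aminotransferase BCAT4 of glucosinolate synthesis, 1 of 15 on its list to be named, had 1930 ± 151 in 4tga safener and 1010 ± 236 in sid2-2 safener (SD, n = 3 each, log2 0.96, limma adjusted p = 0.000212). Of 15 cold and drought genes 3 were named, and 2 of these were higher in 4tga safener, COR15A with 262 ± 41.7 against 111 ± 37.1 in sid2-2 safener (log2 1.28) and COR15B with 256 ± 12.2 against 109 ± 32.4 (log2 1.27), and COR47 was not called (log2 0.06). PYK10, a beta-glucosidase abundant in roots and the 1 measured gene of 6 on the root list, ranged from 396 to 476 in 4tga safener, from 228 to 322 in sid2-2 safener and from 255 to 328 in Col0 safener (log2 0.66 between the mutants, limma adjusted p = 0.0108), and its part in the results was not tested. RCA, LHCB4.2 and PRK of the photosynthesis list, the guard cell gene FMA, the phloem sugar transporter SWEET11 and the housekeeping genes PEX4 and TIP41L (AT4G34270) were not called between the mutants, with log2 differences of -0.15 to 0.38. Against Col0 safener, RCA (log2 0.30) and PRK (log2 0.48) were higher in sid2-2 safener (limma adjusted p = 0.0495 and 0.0244) and not called in 4tga safener (log2 0.25 and 0.33). The transcription factor gene WRKY53 of the senescence list was higher in 4tga safener, at 502 ± 11.4 against 268 ± 13.1 in sid2-2 safener (log2 0.91). Against Col0 safener (551 ± 45.9) it was lower in sid2-2 (log2 -1.04, limma adjusted p = 1.36e-05) and not called in 4tga (log2 -0.13, adjusted p = 0.521), which is not the members' position.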

How the data were processed

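The authors deposited intensities on a linear scale, made with RMA per the submitters' processing notes (no version given). The listed values of each array had a median of 200, and 31.5% of all values were blank. The sources used here do not give the filter behind the blanks or any rescaling after RMA. The deposited intensities were converted to log2 here without rescaling, and blanks were left missing. All 18 columns were used (0 left out), and 64 array controls were removed.

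Group means were fitted to all 18 arrays in limma 3.58.1 (R 4.3.3, lmFit and eBayes), with Benjamini-Hochberg adjustment over all probe sets with at least 2 listed values in each group compared. The design had taken the table to be complete, so that filter was added after the blanks were seen. Alternatives changed the scaling, the filter, the samples and terms of the fit, the blanks and the threshold of the rule, and left out each array in turn. With 200 probe sets changed by a log2 of 1, 98.5%, 95.5% and 96% were recovered in simulated data for 4tga against Col0 (14859 probe sets), sid2-2 against Col0 (14900) and 4tga against sid2-2 (15072) under safener. The false calls numbered 10, 8 and 13. Smaller changes were not simulated, so these shares do not give the recovery of differences such as the 0.48 to 0.99 called between the mutants. The number of arrays limits the precision. The p-values rest on the spread between biological samples within a group, pooled over all 6 groups, mock groups included, and moderated over the probe sets by eBayes.

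The members and lists were chosen with earlier results of these data known. By rule the text names the members with the largest mock differences, the highest levels, the largest called changes and the largest responses, and those nearest the threshold. The remaining members and list genes are named so that each is accounted for. Each of the 22 genes had 1 probe set, none of a kind marked for cross-hybridization. Replicate numbers were not used as pairs. Coordinates are not given, since the files name no genome build.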

Additional observations from a re-analysis of the deposited data

Results flagged for a closer look

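The genotype effect under safener differed between 4tga and sid2-2, by the test of the difference itself, for 8 members (limma, Benjamini-Hochberg over all probe sets). The log2 values of 4tga safener minus sid2-2 safener were 0.99 for AT4G29700, 0.76 for AT2G43535, 0.75 for JAL33, 0.71 for AT1G22160, 0.69 for AT2G43530, 0.67 for NDB4, 0.64 for AT1G52000 and 0.48 for AT3G28500. In mock leaves the same difference between the mutants was 0.43, -0.16, -0.15, 0.00, 0.06, 0.32, -0.44 and 0.52 in that order, from arrays that chose the members. Groups of 3 arrays were not screened for outlying samples.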

How the results depend on the processing

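Over 12 to 15 alternatives per gene and comparison, 31 of 42 calls of single members held throughout, 0 reversed, and 5 values gained a call, 4 of them (AT1G22160, AT2G43530, AT2G43535 and AT4G19430) in sid2-2 against Col0 with array weights, which called 19 members there. The members called higher in 4tga against Col0, sid2-2 against Col0 and 4tga against sid2-2 numbered 19, 15 and 7 with a replicate block, where the call of AT1G52000 between the mutants was lost (adjusted p = 0.0542), and 17 to 18, 11 to 15 and 5 to 6 without 1 array at a time. The third count was 4 with blanks at the lowest value of each array, a setting that also moved JAL33 against Col0 in 4tga to a log2 of 2.16, and with only the 2 groups in the fit 1 member, AT1G71530, was lower (log2 -0.36, adjusted p = 0.0429). The replicate numbers share only a number: of 45 same-numbered pairs of arrays 14 had deviations correlated above 0.1, and under safener an array correlated best with its own number in 8 of 18 comparisons with another group. Of all probe sets, 1309 were higher and 628 lower in 4tga against Col0, 1332 and 622 in sid2-2 against Col0, and 1143 and 1191 in 4tga against sid2-2. With array weights these were 3248 and 1831, 2822 and 1216, and 1583 and 1855. Centring each array on the median of probe sets listed everywhere, which moved arrays by up to 0.119 (log2), gave 1119 and 970, 929 and 964, and 1348 and 1160, with 19, 15 and 8 members higher as before. With only the 2 groups in the fit 778 were higher in sid2-2 against Col0. Without 1 array the higher ones numbered 679 to 1581, 739 to 1651 and 772 to 1004. They numbered 1251, 1259 and 1127 with a replicate block, and 969, 996 and 941 with filled blanks. The rule gave 13 genes at a threshold of 0.9, 32 at 0.7, 26 with quantile normalization (20 of them members), 16 when centred (all members) and 19 to 32 without 1 array. The causes of these shifts were not tested. Blanks limit what low signals can show.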
